A study of Mus musculus with 6 samples.

Results

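The late step of exit from naive pluripotency was described here by comparing open chromatin in E14 mouse embryonic stem cells 48 h and 96 h after 2iL was withdrawn. The intervals of the 48 h and 96 h peak lists were merged where they overlapped by at least 1 bp, which gave 104618 regions, of 131410 when the 2iL list was merged in as well. A region is called lost when the 48 h list alone held it, gained when the 96 h list alone held it, and shared when both did. There were 27173 lost, 16462 gained and 60983 shared regions. E14 is an established mouse embryonic stem cell line. All cells were grown on gelatin in N2B27, a serum-free basal medium, with 2iL, that is the GSK3 inhibitor CHIR99021 at 3 uM, the MEK inhibitor PD0325901 at 1 uM and the cytokine LIF. They were plated at single cell density, and the next day 2iL was taken away, so that the 48 h and 96 h cells were in N2B27 alone and differed from each other in time. Each of these groups had 2 samples, A and B, and so did the group left in 2iL, which is used here as the starting state. The authors' list of a group stood for both of its samples, so no spread between replicates could be measured and no test between the times was possible.

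Mouse embryonic stem cells in 2iL are held in the naive state, which resembles the preimplantation epiblast. When 2iL is removed, the network of naive transcription factors is dismantled, cells pass through a formative state, and they become able to enter lineages; in N2B27 without added signals many of them take a neural course. ATAC-seq reads this at the level of DNA: a transposase inserts adapters where chromatin is open, which is mostly at gene starts and at distal enhancers, and enhancers are more specific to a cell state than starts are.

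The strongest lost and gained regions that held the start of a protein-coding gene are shown here by their upstream sequence, as a view of what kind of promoter left or entered the list. Each is the stretch of 250 bases before the start, from RefSeq on GRCm38.p6, the assembly also called mm10, written on the strand of the gene. Capitals mark matches, on either strand, to the short motifs searched for below. Lost starts were those of Gm31714, a predicted gene (chr13:65415123-65415372, minus strand), Serpinb5, which encodes the serpin maspin (chr1:106860925-106861174, plus strand), and 1700028K03Rik, whose RefSeq synonym SCRE refers to a synaptonemal complex protein (chr5:107534470-107534719, plus strand).
Gm31714: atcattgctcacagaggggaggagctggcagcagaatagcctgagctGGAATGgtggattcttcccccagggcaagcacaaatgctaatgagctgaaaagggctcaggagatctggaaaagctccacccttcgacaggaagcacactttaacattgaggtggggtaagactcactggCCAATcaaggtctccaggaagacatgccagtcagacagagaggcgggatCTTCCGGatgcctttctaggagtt
Serpinb5: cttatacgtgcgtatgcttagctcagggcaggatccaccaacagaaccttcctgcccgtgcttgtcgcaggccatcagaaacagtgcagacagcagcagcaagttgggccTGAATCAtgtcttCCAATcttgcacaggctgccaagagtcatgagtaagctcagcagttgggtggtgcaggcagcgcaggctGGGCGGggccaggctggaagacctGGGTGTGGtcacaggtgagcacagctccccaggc
1700028K03Rik: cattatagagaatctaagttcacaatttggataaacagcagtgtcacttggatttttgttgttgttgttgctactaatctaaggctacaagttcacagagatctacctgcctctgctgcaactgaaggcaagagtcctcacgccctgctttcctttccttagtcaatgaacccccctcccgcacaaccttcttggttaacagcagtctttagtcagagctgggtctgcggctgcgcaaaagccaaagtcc
Gained starts were those of Pon1, which encodes paraoxonase 1, an esterase carried on lipoproteins (chr6:5193947-5194196, minus strand), Itprid1 (chr6:55836768-55837017, plus strand) and Acta2, which encodes smooth muscle actin (chr19:34255374-34255623, minus strand).
Pon1: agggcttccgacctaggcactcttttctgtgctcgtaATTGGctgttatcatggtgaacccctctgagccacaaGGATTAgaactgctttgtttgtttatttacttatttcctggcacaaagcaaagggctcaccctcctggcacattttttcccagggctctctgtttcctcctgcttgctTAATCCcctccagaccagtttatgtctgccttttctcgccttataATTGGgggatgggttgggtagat
Itprid1: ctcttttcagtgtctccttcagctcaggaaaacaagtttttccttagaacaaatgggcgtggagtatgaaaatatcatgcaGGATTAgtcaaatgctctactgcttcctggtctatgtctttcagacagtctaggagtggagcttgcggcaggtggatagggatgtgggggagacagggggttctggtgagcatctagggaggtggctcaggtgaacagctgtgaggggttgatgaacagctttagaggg
Acta2: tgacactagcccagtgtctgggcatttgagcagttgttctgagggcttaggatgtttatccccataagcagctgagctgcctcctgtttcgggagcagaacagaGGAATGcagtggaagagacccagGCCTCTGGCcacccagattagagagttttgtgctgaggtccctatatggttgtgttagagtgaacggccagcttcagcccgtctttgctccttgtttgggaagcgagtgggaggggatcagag
The fold enrichment at the summit, the authors' ratio of signal to background, was 37.2 at Gm31714, 30.4 at Serpinb5 and 20.5 at 1700028K03Rik in the 48 h list. In the 96 h list it was 17.7 at Pon1, 15.9 at Itprid1 and 15.1 at Acta2. All of these stretches were poor in CpG, with 2 to 6 CpG in 250 bases. The regions at Gm31714 and Serpinb5 were also listed in 2iL, and the other 4 were not.

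The 48 h list held 88810 intervals over 64.5 Mb and the 96 h list 78055 over 55.6 Mb. Median interval widths were 658 and 645 bp. The most frequent background recovered from the authors' fold and p values, which moves with sequencing depth, was 15.2 tags per position at 48 h and 13.99 at 96 h. The deeper list was thus also the longer one, and the part of depth in the lost and gained shares was not tested. Of 10 embryonic stem cell markers, 10 had a region within 1 kb of a gene end at 48 h and 9 at 96 h; the one without was Dppa4. Of the markers of other cell types, 6 of 6 neural progenitor genes had one at both times, and 4 and then 5 of 6 extraembryonic endoderm genes, with Dab2 at 0 in both lists. Trophoblast markers had 3 and then 2 of 5, with Elf5 and Esx1 at 0, and fibroblast markers 5 of 6 at both times, with Col3a1 at 0. Open gene ends therefore did not set the cell types apart in these lists.

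Of the regions listed at 48 h, 30.8% were lost by 96 h (exact binomial 95% interval 30.5 to 31.1%, n = 88156), and of those listed at 96 h, 21.3% were gained (20.97 to 21.5%, n = 77445). These intervals, like all below, cover counting error only. When the 48 h list was cut by −log10 p to the length of the 96 h list, the lost share was 25.1% and the gained share 24.9%, so the excess of losses over gains did not hold at equal list lengths. The shared regions made up 69.2% of the 48 h list and 78.7% of the 96 h list. A lost region is one that no longer met the limits of the list, and this does not show that it was fully closed. Lost regions were weaker and narrower than shared ones: their median fold in the 48 h list was 5.96, against 9.78 for shared regions, and their median width 521 bp against 732 bp. Gained regions had a median fold of 6.13 in the 96 h list, against 10.04 for shared regions, and a median width of 453 bp against 712 bp. Few regions sat at the edge of the definition. Of the lost regions, 361 had a 96 h interval within 100 bp (median fold 3.85), and of the gained regions, 344 had a 48 h interval that close (median fold 3.58). Among 59785 shared regions made of a single interval in each list, 3 overlapped by 100 bp or less. The median distance from a lost region to the nearest 96 h interval was 5.86 kb, and from a gained region to the nearest 48 h interval 6.53 kb.

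The history of a region in 2iL separated the classes. Of the lost regions, 49.4% were also in the 2iL list, so that the remaining 13748 were listed at 48 h alone of the 3 groups. Of the shared regions, 77.7% had been listed in 2iL, and of the gained regions 16.2% (15.7 to 16.8%), which are 2674 regions listed in 2iL, not at 48 h, and again at 96 h. Read from the 48 h list, 22.1% of the regions inherited from 2iL were lost (n = 60794), against 50.2% of the regions that had not been listed in 2iL (n = 27362). Read from the 96 h list, 5.34% of the regions also listed in 2iL were gained (n = 50043) and 50.3% of the others (n = 27402). The 95% intervals of the 2 lost shares, 21.8 to 22.4% and 49.7 to 50.8%, did not overlap, nor did those of the gained shares, 5.15 to 5.54% and 49.7 to 50.9%.

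The split was present at every strength. Regions were placed in 10 equal classes by their fold in their own list. The lost share was 54.2% in the weakest class and 2.69% in the strongest, and the gained share 38.7% and 2.04%. Within the weakest class, 45.5% of the regions inherited from 2iL were lost and 60.7% of the others. Within the strongest class these shares were 2.34% and 8.45%. For gained regions they were 15.3% and 55.4% in the weakest class, and 0.365% and 21.02% in the strongest. In each of the 10 classes of both lists the regions absent from 2iL had the higher share. The 48 h list enters both this step and the one from 2iL, so the steps are not independent.

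**Figure D1:**
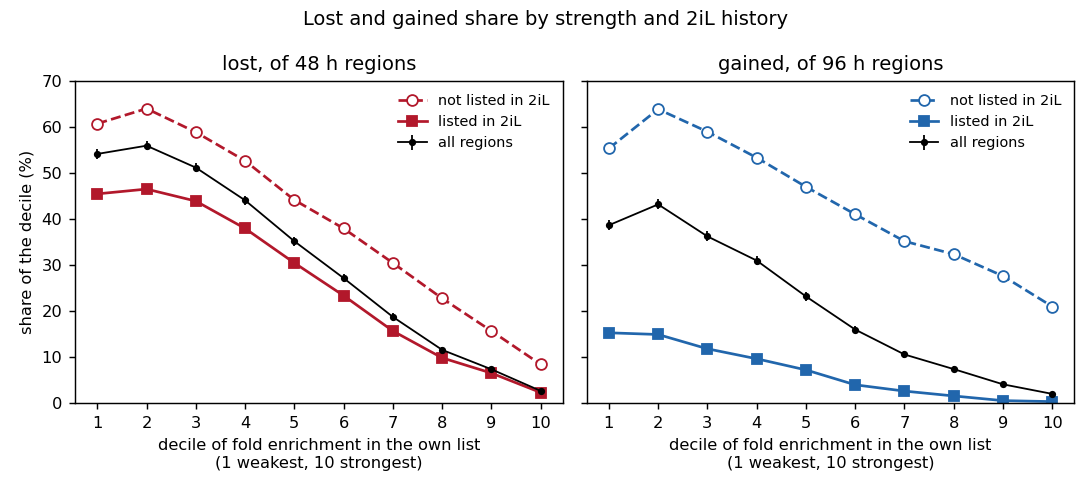
Share of regions lost (left, of the 48 h list) or gained (right, of the 96 h list) in each of 10 equal classes of the authors' fold enrichment, for regions listed in 2iL (squares), not listed in 2iL (open circles) and all (black, with exact binomial 95% intervals). The black line falls from 54.2% to 2.69% on the left and from 38.7% to 2.04% on the right, and open circles lie above squares in every class.

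Position relative to genes was the next feature that differed between the classes. Distance was taken from the summit to the nearer end of the nearest protein-coding gene, since starts with a strand were at hand for only part of the genes. Within 1 kb of a gene end, 10.1% of the 48 h regions were lost (9.65 to 10.6%, n = 15926) and 5.13% of the 96 h regions gained (4.78 to 5.49%, n = 15089). Farther out, 35.4% were lost and 25.2% gained. The lost share was 32.3% at 1 to 10 kb and 38.3% beyond 100 kb. The gained share rose more steeply over the same range, from 18.3% to 36.8%. Near genes 2.08 regions were lost for each one gained, and beyond 100 kb the ratio was 1.07. At equal list lengths these ratios were 1.12 and 0.661, so the gene-end ratio stayed the higher one but was close to 1. Regions over 100 kb from any gene end made up 21.3% of the gained regions, 13.8% of the lost and 9.89% of the shared. Bodies of genes held similar parts of the 3 classes, 52.6% of lost, 54.1% of shared and 53.1% of gained regions. For the earlier step from 2iL to 48 h, which shares the 48 h list, 7.26% of the 2iL regions within 1 kb of a gene end were lost and 12.9% of the 48 h ones gained.

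**Figure D2:**
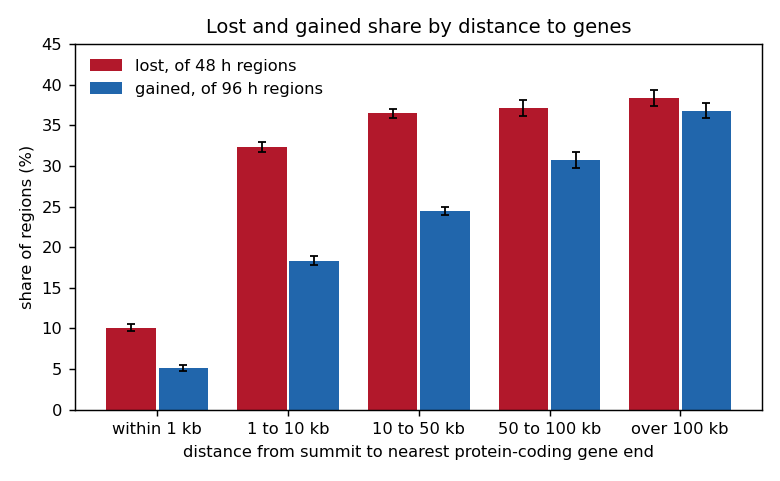
Share of 48 h regions lost (red) and of 96 h regions gained (blue) by distance of the summit from the nearest protein-coding gene end, with exact binomial 95% intervals. Lost shares run from 10.1% within 1 kb to 38.3% beyond 100 kb, and gained shares from 5.13% to 36.8%, where the bars nearly meet.

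Shared regions kept their shape. Of 60983, 98.0% joined a single interval of each list. The strongest summit moved by a median of 8 bp, and in 90.2% by no more than 50 bp. At 96 h 54.4% were narrower and 44.3% wider, and the median width went from 724 to 704 bp. Fewer summits were listed in 10793 of them and more in 12615. Gene-end and distal shared regions were alike in this, with 54.0% and 54.6% narrower.

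Losses and gains were spread over the chromosomes. On the autosomes and X, lost shares ran from 28.6% on chromosomes 9 and 11 to 33.9% on chromosome 18, and gained shares from 17.7% on chromosome 7 to 24.7% on chromosome 12. Neighbours tended weakly to share a fate. Where the next region lay within 20 kb, it was lost in 32.3% of cases after a lost region and in 29.7% after a shared one, and gained in 24.2% after a gained region and in 17.8% after a shared one. The longest run of neighbouring lost regions held 12 on chromosome 4 (145489379 to 145837401), at the zinc finger genes Zfp990 and Zfp980 and at Gm13212, and 10 of these were already listed in 2iL. Of 6 runs of 9 lost regions, the shortest lay at Pitpnc1, which encodes a phosphatidylinositol transfer protein, and at Elovl6, which encodes a fatty acid elongase. The longest gained run held 10 regions over 1279 kb on chromosome 8 (49441273 to 50720620). It began inside Tenm3, which encodes the adhesion protein teneurin 3, but most of its span lay beyond that gene, which ends at 49522824. Lost runs were read with gained regions left out, and gained runs with lost regions left out. A run of 8 gained regions at Fgfr2, an FGF receptor gene, lay on chromosome 7 from 130047778 to 130162225. Its median fold was 12.2, and none of its regions was in the 2iL list. Of the 3 other gained runs of 8, one lay at Ddx1, an RNA helicase gene, with a median fold of 6.37.

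Starts of genes were examined apart, from the RefSeq promoter table, which gives 21263 starts for 17492 protein-coding genes, 79.9% of those in the gene table. A start took the class of the region that contained it. Of these starts 13218 lay in shared regions, 363 in lost, 191 in gained and 7491 in none. The share lost was 2.67% of the starts listed at 48 h (2.41 to 2.96%, n = 13581) and the share gained 1.42% of those listed at 96 h (1.23 to 1.64%, n = 13409). Starts in shared regions were mostly those of CpG islands: the ratio of observed to expected CpG over the 300 bases around the start had a median of 0.763. The median was 0.330 for lost, 0.256 for gained and 0.180 for unlisted starts. Of the starts listed at 48 h, 15.4% were lost where the CpG ratio was under 0.3, 4.91% at 0.3 to 0.6, and 0.618% at 0.6 or more. The gained shares in the same order were 10.7%, 1.51% and 0.434%. Among starts with a fold of 15 or more, 19 of 5021 were lost and 4 of 6040 gained. At a similar strength, a fold of 5 to 10, 15.3% of the starts with a ratio under 0.6 were lost (13.2 to 17.5%, n = 1153) and 1.07% of the others (0.681 to 1.60%, n = 2146).

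**Figure D3:**
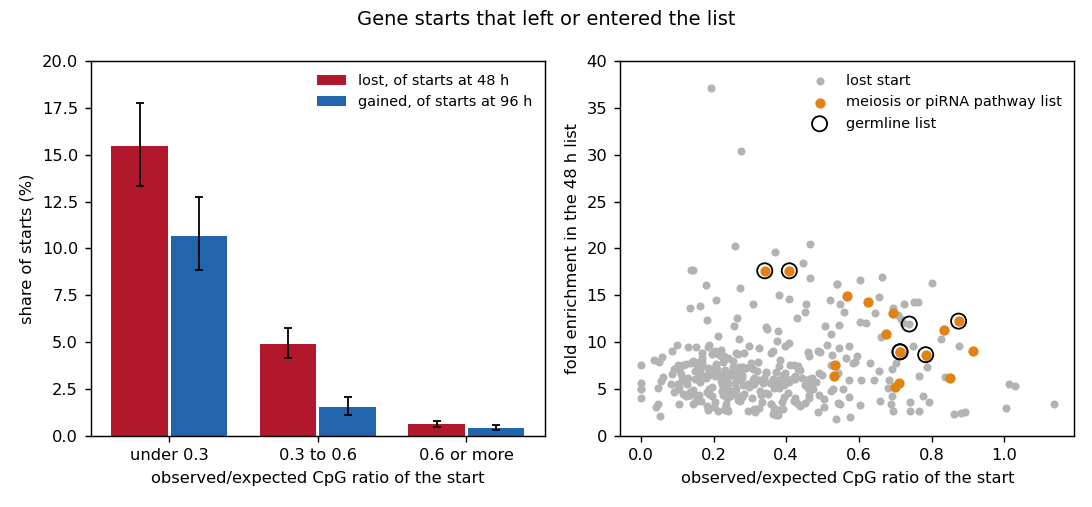
Left, share of protein-coding gene starts lost (red) or gained (blue) by observed/expected CpG ratio, with exact binomial 95% intervals; the lost share falls from 15.4% to 0.618%. Right, each lost start by its CpG ratio and its fold in the 48 h list, with starts of the germline list circled and those of the meiosis and piRNA pathway lists in orange; of the 60 lost starts at a ratio of at least 0.6, 12 belong to the meiosis and piRNA lists.

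Germ cell genes were among the CpG-rich starts that were lost. Genes of meiosis and of the piRNA pathway, which silences transposons in the germline, typically have CpG-rich promoters that DNA methylation silences in somatic cells. Of the 15 starts of the germline list in the 48 h list, 7 were lost, against 2.67% of all starts. None was gained, where 1.42% of all starts listed at 96 h were. The list was chosen with earlier results of these data known. The lost starts belong to Tdrd12 and Asz1, which act in piRNA biogenesis, Sycp1, a synaptonemal complex protein, Hormad1, a protein of the meiotic chromosome axis, and Brdt, a testis bromodomain protein. Those of Tdrd12 lay in a single region, as did those of Hormad1, so the 7 are not independent. The Tdrd12 starts had CpG ratios of 0.341 and 0.408, and the rest had ratios above 0.6. Folds in the 48 h list were 17.6 at Tdrd12, 12.2 at Sycp1, 11.9 at Brdt, 8.96 at Hormad1 and 8.65 at Asz1. Starts of Tdrd12 and Hormad1 were also in the 2iL list, and those of Sycp1, Brdt and Asz1 were not. Ddx4, Mael and Stk31 stayed listed: their folds in the 48 h list were 12.7, 17.6 and 23.2, and in the 96 h list 5.47, 6.07 and 10.2. Prdm1, Kit and Sycp3 had folds of 18.5, 14.1 and 10.8 in the 48 h list, and 18.7, 13.95 and 11.9 in the 96 h list. The sequences before the 3 strongest of the lost germline starts follow, with each CpG in capitals. They come from RefSeq on GRCm38.p6, at chr7:35537745-35537994 (minus strand), chr3:102936101-102936350 (minus strand) and chr5:107330944-107331193 (plus strand).
Tdrd12: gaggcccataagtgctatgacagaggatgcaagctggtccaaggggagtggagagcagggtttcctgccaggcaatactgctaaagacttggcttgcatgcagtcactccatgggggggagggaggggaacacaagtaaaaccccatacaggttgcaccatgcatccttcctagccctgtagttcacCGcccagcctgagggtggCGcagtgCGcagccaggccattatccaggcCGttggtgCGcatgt
Sycp1: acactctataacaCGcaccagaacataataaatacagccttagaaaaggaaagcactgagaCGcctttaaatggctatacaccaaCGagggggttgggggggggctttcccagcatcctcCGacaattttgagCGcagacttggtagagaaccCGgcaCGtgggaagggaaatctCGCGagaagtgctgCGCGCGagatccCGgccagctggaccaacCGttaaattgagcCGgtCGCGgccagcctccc
Brdt: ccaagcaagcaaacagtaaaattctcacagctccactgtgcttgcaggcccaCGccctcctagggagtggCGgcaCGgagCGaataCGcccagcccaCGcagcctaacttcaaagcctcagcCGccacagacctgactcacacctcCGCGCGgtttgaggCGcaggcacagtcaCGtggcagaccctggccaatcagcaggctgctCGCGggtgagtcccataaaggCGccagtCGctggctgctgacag
Sycp1 and Brdt held 17 and 16 CpG in 250 bases, where the gained starts above held 2 to 4. Tdrd12 held 5, all within the last part of the stretch before the start.

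The pattern was followed in wider lists of meiosis and piRNA pathway genes that were written after the lost starts had been seen, so they describe and support nothing further. The meiosis list shares 3 of its 35 genes with the germline list, and the piRNA list 5 of its 19. Of 31 meiosis starts listed at 48 h, 11 were lost, from 10 genes: Syce1, Sycp1, Sycp2l and Tex12, of the synaptonemal complex, Hormad1, Rec114 and Ankrd31, which act in the formation of meiotic DNA breaks, Rnf212 and Rnf212b, and Spata22. Of 18 piRNA pathway starts, 6 were lost, at Tdrd12, Asz1, Mov10l1, Gtsf1 and Piwil1. None of either list was gained, in a total of 20 and 12 starts at 96 h. Of all starts listed at 96 h 1.42% were gained, and the intervals of these 2 shares reach 16.8% and 26.5%. The lists are thus not set apart in gains. Of all starts listed at 48 h 2.67% were lost, but no comparison is made, since the lost starts had been seen. The folds of the lost starts of both lists ran from 5.25 at Rnf212b to 17.6 at Tdrd12 at 48 h, with 14.9 at Ankrd31, 14.3 at Syce1 and 13.1 at Sycp2l. Other meiosis genes stayed listed. The folds in the 48 h list were 21.5 at Mei4, 19.9 at Hormad2, 19.03 at Dmc1, 16.1 at Smc1b and 11.5 at Syce3, and in the 96 h list, in the same order, 25.5, 20.5, 18.04, 16.9 and 4.40. Folds were not scaled between the lists, so no change is read from them. Genes of the meiosis and piRNA lists gave 12 of the 60 lost starts with a CpG ratio of at least 0.6. Further starts among those 60, named after their values were seen, were those of the testis genes Naa11 (fold 16.96), Gtf2a1l (16.3), Rpl10l (13.1), D1Pas1 (12.9) and Slc25a31 (10.3), each a relative of a more widely expressed gene, and of Spesp1 (14.0), a sperm protein gene. Of the 60, 35 were also listed in 2iL.

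Each of the other lists lost at most 2 starts. The naive list lost 2, at Spp1, which encodes osteopontin, and Tcl1, a cofactor of AKT. The formative list lost Cldn6, a claudin gene, and 1 start of Otx2, another of whose starts stayed without a region. Lifr, the LIF receptor gene, lost 1 start, and Rara, a retinoic acid receptor gene, 1. Hox genes lost 1, at Hoxd12. The axon guidance, Notch, WNT, hedgehog, glycolysis and housekeeping lists lost 0, of 27, 19, 20, 10, 22 and 17 starts listed at 48 h. Of all starts listed at 48 h 2.67% were lost, so 0 in lists this short does not set them apart. Gained starts included En1, a midbrain homeobox gene, with a fold of 4.43 in the 96 h list, Eomes, a T-box gene of mesendoderm and cortex, with 2.71, and Smarcd3, a subunit of neural and cardiac BAF complexes, with 2.32.

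The gained starts included several genes of contractile or stress-fibre proteins. These were grouped into a muscle cytoskeleton list after they had been seen, and the list is a description. Of its 17 starts at 96 h, 9 were gained, from 7 genes, and 0 of 8 at 48 h were lost, where 2.67% of all starts were lost. Gained starts were used to draw up the list, so no comparison is made with the 1.42% of all starts that were gained. All of its gained starts but those of Ankrd1 and Flnc had a CpG ratio under 0.3, where 10.7% of the starts listed at 96 h were gained. The gained starts of Ldb3 lay in a single region, as did those of Flnc. The fold in the 96 h list was 15.1 at Acta2, 9.21 at Ankrd1, an ankyrin repeat protein of muscle, 8.46 at Actc1, cardiac actin, 8.06 at Ldb3, a Z-disc protein, 7.34 at Cav3, muscle caveolin, 4.12 at Tnnt2, cardiac troponin T, and 1.95 at Flnc, a filamin. Starts of Flnc were also in the 2iL list, and the rest were not. Not all of the list moved: 15 of its 32 starts, those of Myh6, Myh7, Myl2, Myl7, Tnni3 and others, had no region at either time. Cnn1, Des, Tpm1 and Tpm2 were listed at both. CpG-rich gained starts were weak. Esrrg, an orphan nuclear receptor gene, had the highest fold at 10.6. They also included ubiquitous genes such as Rpl19, with 2.91 and 2.63 at different starts, and Actg1, with 2.47.

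Short motifs were searched in the 300 bases around each start (250 before to 50 after), on both strands, as plain letters. The TEAD letters GGAATG occurred in 23.0% of gained, 12.9% of lost and 11.4% of shared starts, and in 13.6% of all protein-coding starts. The ZIC letters CAGCAGG occurred in 21.5%, 16.0% and 10.7%, and in 10.5% of all. The SOX letters AACAAT occurred in 11.5%, 7.16% and 4.96%, and in 9.05% of all. CpG content differs between the classes, so the same counts were taken in starts with a CpG ratio under 0.6. There TEAD letters were in 25.5% of gained, 13.2% of lost and 15.7% of shared starts, and ZIC letters in 23.5%, 15.2% and 15.5%. For SOX the shares were 14.1%, 6.60% and 6.58%, but 16.7% of unlisted starts also held these letters. The GC box GGGCGG was in 67.8% of shared, 32.0% of lost and 28.8% of gained starts, and the TATA box TATAAA in 5.98%, 12.7% and 12.04%. The ETS letters CCGGAAG were in 17.2%, 9.92% and 4.19%. Other capitals in the sequences above mark the box CCAAT, found in 38.2% of all protein-coding starts, and the OTX letters TAATCC, found in 6.42%. They also mark the AP-1 letters TGANTCA, found in 6.99%, the KLF letters GGGTGTGG, found in 3.63%, and the AP-2 letters GCCNNNGGC, found in 19.9%. The shares of lost and gained starts with the octamer ATGCAAAT, to which POU factors bind, were 1.65% and 1.57%, against 1.66% of all. The NRF1 core GCGCATGC was in 3.03% and 1.05%, against 3.52% of all, and the E-box CACGTG in 8.54% and 6.28%, against 7.84%. Letters of TCF and LEF factors, ATCAAAG, were in 3.31% and 1.57%, against 3.22%, and the homeodomain letters TAATTA in 4.41% and 4.19%, against 4.53%. The ESRRB element TCAAGGTCA and the CRE element TGACGTCA were in 1 and 4 lost starts, and each in 1 gained start. CCAAT can lie inside an AP-2 match, no other searched motif holds another, and matches may overlap by some bases. Such a match is a run of letters and not a measured binding site.

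The strongest lost regions lay mostly over 1 kb from a gene end and were mostly listed in 2iL as well. Of the 10 with the highest fold in the 48 h list, 9 were listed in 2iL and 1 lay within 1 kb of a gene end. Among the 10 strongest lost regions, chr3:37481165-37481777 lay inside Spata5, an AAA ATPase gene, with a fold of 28.4. The region chr3:97129320-97130017 lay 29.1 kb from Acp6, a lysophosphatidic acid phosphatase gene, with 26.4. One inside Vcan, the gene of the matrix proteoglycan versican, had 23.99 (chr13:89661445-89662191), and one 30.04 kb from Runx1, a hematopoietic transcription factor gene, had 24.8 (chr16:92571072-92571850). Of the 10 gained regions with the highest fold in the 96 h list, 7 were absent from 2iL, and 0 lay within 1 kb of a gene end. Both were the usual case, since 16.2% of all gained regions were listed in 2iL and 4.70% lay within 1 kb of a gene end. One inside Golph3, a Golgi phosphoprotein gene, had a fold of 27.9 in the 96 h list (chr15:12340882-12341783). One 45.1 kb from Npr3, the natriuretic peptide clearance receptor gene, had 26.5 (chr15:11794500-11795200), and one 13.3 kb from Gmnc, a regulator of multiciliated cells, 26.4 (chr16:26943513-26944295). One inside Gulp1, an engulfment adaptor gene, had 24.9 (chr1:44591686-44592213). The annotation used here does not tell exons from introns. At gene ends the strongest lost regions included Rbm44, an RNA-binding protein gene of germ cells, with a fold of 22.6, and Pdcl2 and Pxt1, which are testis genes, with 19.7 and 18.4. The strongest gained ones included Stard5, a sterol transfer protein gene, with 19.8, and Epdr1, with 17.9.

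Each region was then assigned to the protein-coding gene whose end lay nearest its summit, up to 100 kb away, which placed 91334 regions (87.3%) at 17894 genes. Nearness does not show that a region acts on the gene. More regions were lost than gained at 7886 genes (44.1%), and more gained than lost at 3148 (17.6%). At 5279 of the 17894 genes no region was lost or gained. The counts per gene and per list come from the full lists and were not taken again at equal list lengths. Of the assigned regions, 29.9% of those at 48 h were lost and 19.1% of those at 96 h gained, and the lists below are read against these values. Between 48 and 96 h, 721 genes lost each of their regions, most with 1 or 2, and 34 had at least 3. The largest counts were 6 regions at Dppa4, a pluripotency gene, and at the zinc finger gene Zfp990. Dnase1 and Ccdc172 lost 5 each. Of the 296 genes with regions at 96 h alone, 4 had at least 3: Sag, the arrestin of photoreceptors, with 4, and Malrd1, Serpina9 and Vmn1r200 with 3 each.

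Genes of the naive network and of general pluripotency lost more of their regions than all genes did. At 22 naive genes, 89 of 207 regions were lost (43.0%, 36.2 to 50.04%) and 16 of 134 gained (11.9%, 6.98 to 18.7%). Net losses occurred at 16 genes and a net gain at 1, Tfcp2l1, a CP2 factor, which went from 6 to 7 regions. Morc1, a germline transposon silencer, went from 21 to 6 with 0 gained. Prdm14, a repressor of FGF signalling, went from 10 to 6, Nr5a2, an orphan receptor, from 19 to 13, and Tbx3 from 19 to 15. Klf4, Nanog and Fbxo15 had no lost or gained region, with 7, 6 and 4 at both times. Of the 89 lost regions, 60 were listed in 2iL (67.4%, 56.7 to 77.0%), against 49.4% of all lost regions. At the general pluripotency genes 78 of 183 were lost (42.6%, 35.4 to 50.1%) and 24 of 129 gained (18.6%). Their lost share was 33.7% (24.6 to 43.8%) without regions over 20 kb away, and 34.1% (28.3 to 40.3%) with every gene end within 50 kb. Both intervals include the lost share of all regions under the same setting, 26.8% and 28.9%. The naive genes lost 42.0% (32.7 to 51.7%) and 39.8% (33.7 to 46.3%) under these settings, above both. There, 38 of the 78 had been listed in 2iL. Sall1 went from 26 to 13, Zfp281, a factor that promotes exit to the primed state, from 24 to 13, and Dppa2, the partner of Dppa4, from 6 to 2. Pou5f1 kept its 5.

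The regions that formative genes lost were less often listed in 2iL than those that naive genes lost. At these 22 genes 66 of 203 regions were lost (32.5%, 26.1 to 39.4%), a share near that of all assigned regions, and 26 of 163 were gained (16.0%). Of the 66, 25 had been listed in 2iL (37.9%, 26.2 to 50.7%). This interval does not overlap that of the naive genes, though it reaches the 49.4% of all lost regions. Both intervals treat regions as independent, but many lie at the same gene, with 11 of the 60 naive ones at Morc1. The difference between the lists was not tested. Early neuron and definitive endoderm genes had shares near that of formative genes, 36.7% and 38.1%, so such a share was not particular to formative genes. Grhl2, an epithelial transcription factor that opens enhancers in formative cells, went from 30 to 19 regions with 0 gained, Pou3f1 from 19 to 13, and Lef1, a nuclear effector of WNT signalling, from 26 to 18. At Grhl2 and Pou3f1 4 of 11 and 1 of 6 lost regions had been listed in 2iL. Otx2 had 13 regions at both times, with 2 lost and 2 gained. Sall2 and Lin28b gained 1 and 2 regions and lost 0.

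Neural progenitor and axon guidance genes gained more regions than they lost. Other neural lists did not: early neuron genes lost 49 of 184 regions (26.6%) and gained 37 of 172 (21.5%), and synaptic adhesion genes 67 of 206 (32.5%) and 54 of 193 (28.0%). At 32 neural progenitor genes, 63 of 305 regions were lost (20.7%, 16.3 to 25.6%) and 94 of 336 gained (28.0%, 23.2 to 33.1%), with net gains at 16 genes and net losses at 10. Zfp521, a zinc finger protein that drives early neural differentiation, went from 7 to 16 regions, Irx3 from 6 to 10, En1 from 7 to 11, Sox9 from 15 to 19, and Sox11, Pax3 and Nkx6-1 gained 3 net each. Of the 94 gained regions, 11 had been listed in 2iL. Emx2, a forebrain homeobox gene, went from 10 to 7. At 34 axon guidance genes, 83 of 340 were lost (24.4%) and 122 of 379 gained (32.2%, 27.5 to 37.2%), with 17 genes up on balance and 11 down. Here the ephrin gene Efnb1 went from 5 to 15 regions with 0 lost, the semaphorin gene Sema6d from 6 to 14 with 0 lost, the plexin gene Plxna2 from 7 to 16, Slit1 from 18 to 26 and the netrin gene Ntn1 from 14 to 19. Plxna1 went from 15 to 8 and the netrin receptor gene Unc5b from 24 to 17. Neural crest genes lost 17 of 115 regions (14.8%), the lowest share of the lists drawn, and gained 23 of 121 (19.0%).

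**Figure D4:**
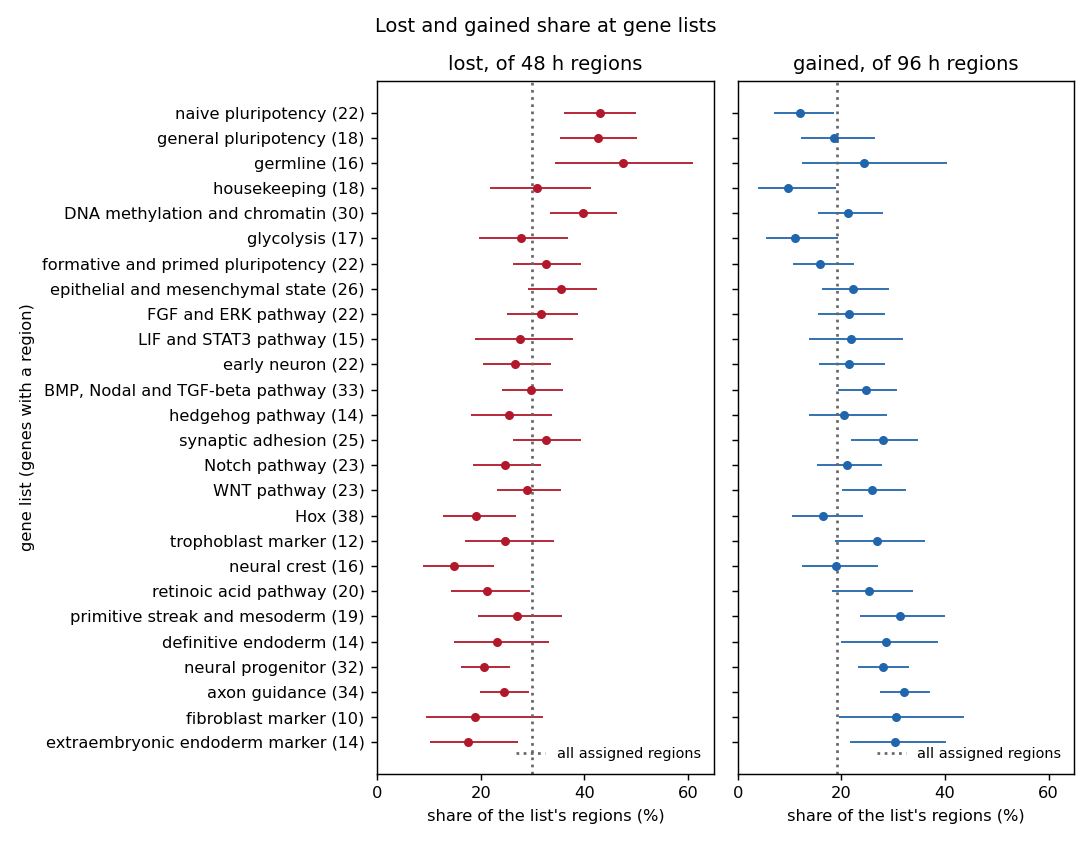
Lost share of 48 h regions (left) and gained share of 96 h regions (right) assigned to each gene list, with exact binomial 95% intervals; numbers in brackets are genes with a region, and dotted lines mark all assigned regions at 29.9% and 19.1%. Intervals of naive, general pluripotency, DNA methylation and chromatin, and germline genes (28 of 59 lost, 47.5%) lie right of the line for losses. With every gene end within 50 kb the germline list lost 29.9%, near the 28.9% of all regions under that setting. For gains, the intervals of neural progenitor, axon guidance, synaptic adhesion, WNT, and BMP, Nodal and TGF-beta genes lie right of the line. The same holds for mesoderm, definitive endoderm, extraembryonic endoderm and fibroblast lists.

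Lists that mark other lineages also gained regions. Primitive streak and mesoderm genes gained 42 of 134 (31.3%, 23.6 to 39.9%), with Kdr, a VEGF receptor gene, from 4 to 10 and Hand1, a mesoderm basic helix-loop-helix factor gene, from 7 to 12. Extraembryonic endoderm markers gained 31 of 102 (30.4%, 21.7 to 40.3%) and lost 15 of 86 (17.4%), with Col4a1, a basement membrane collagen gene, from 5 to 9 and Gata4 and Gata6 from 10 to 12 and 7 to 9. With every gene end within 50 kb these markers lost 31.1% (23.1 to 40.2%), no longer below all regions. Fibroblast markers gained 19 of 62 (30.6%), with Twist2 from 7 to 11. Trophoblast markers gained 29 of 108 (26.9%). Fgfr2, which is on this and the FGF list, went from 17 to 23 regions, where the whole trophoblast list went from 105 to 108. Definitive endoderm genes gained 28 of 98 (28.6%). In the stronger 50% of the 96 h list by −log10 p, where 4.80% of all regions were gained, the gained share was 3.57% for mesoderm genes and 2.63% for extraembryonic endoderm markers, and it was 8.16% for trophoblast markers, 13.3% for fibroblast markers and 14.3% for definitive endoderm genes. There it was 7.98% for neural progenitor and 8.43% for axon guidance genes. These shares rest on 1 to 15 gained regions each. The intervals of mesoderm (2 of 56), extraembryonic endoderm (1 of 38), trophoblast (4 of 49), fibroblast (4 of 30) and neural progenitor genes (13 of 163, 4.31 to 13.3%) include the value of all regions. That of axon guidance genes (15 of 178) starts at 4.79%, just under it, and that of definitive endoderm genes (6 of 42) at 5.43%, above it. Peak lists of whole cultures cannot tell fewer cells of a type from less open chromatin per cell.

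Signalling lists moved in different ways. Retinoic acid genes lost 26 of 123 regions (21.1%, 14.3 to 29.4%, just below the 29.9% of all assigned regions) and gained 33 of 130 (25.4%). By gene body the lost interval was 15.2 to 30.8%, which includes the 30.1% of all regions. Without regions over 20 kb away it was 11.96 to 29.8%, which includes 26.8%. With every gene end within 50 kb it was 16.96 to 28.4%, below 28.9%. Aldh1a2, which makes retinoic acid, went from 4 to 8, and Cyp26b1, which degrades it, from 9 to 13, while the receptor gene Rarg went from 9 to 6. FGF and ERK genes lost 61 of 193 (31.6%) and gained 36 of 168 (21.4%). Net losses occurred at 14 of these 22 genes, among them Spred2, from 20 to 15, Etv5, from 13 to 8, and Dusp6, from 9 to 6, which are feedback regulators or targets of ERK. WNT genes lost 64 of 221 (29.0%) and gained 55 of 212 (25.9%, 20.2 to 32.4%), with Nkd1, a WNT antagonist gene, from 9 to 14. In the BMP, Nodal and TGF-beta list 75 of 252 were lost (29.8%) and 58 of 235 gained (24.7%, 19.3 to 30.7%), with Smad5 from 2 to 6 and Bmp7 from 25 to 20. Both gained shares lie above the 19.1% of all assigned regions. With every gene end within 50 kb the BMP, Nodal and TGF-beta list gained 18.5%, near the 17.5% of all regions under that setting. Notch genes lost 44 of 179 (24.6%) and hedgehog genes 33 of 130 (25.4%), of which Gli2, a hedgehog effector gene, went from 34 to 24 with 0 gained. LIF and STAT3 genes lost 26 of 94 (27.7%), 17 of them listed in 2iL.

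Genes of DNA methylation and chromatin regulation lost a large part of their regions under the main assignment. At 30 genes 93 of 234 were lost (39.7%, 33.4 to 46.3%) and 38 of 179 gained (21.2%). With all gene ends up to 50 kb away taken, 28.3% were lost (24.2 to 32.7%), near the 28.9% of all regions under that setting. Net losses occurred at 21 of the 30 genes. They occurred at 12 of 17 glycolysis genes and at 11 of the 18 housekeeping genes with a region, against 44.1% of all genes with a region, so a high count of net losses was not a feature of the chromatin list alone. Jarid2, a subunit of the Polycomb complex PRC2, went from 30 to 15 with 0 gained, Eed, another PRC2 subunit, from 11 to 7, and Kmt2a, an H3K4 methyltransferase gene, from 8 to 4. Tet3, which oxidises methylcytosine, went from 6 to 8 and Dnmt1 kept its 3. The epithelial and mesenchymal list lost 75 of 211 (35.5%) and gained 39 of 175 (22.3%). Cdh1, the E-cadherin gene, went from 14 to 10 with 0 gained, and Cdh2, the N-cadherin gene, had 7 at both times with 4 lost and 4 gained. Housekeeping and glycolysis genes lost 30.9% and 27.7%, near the value of all assigned regions, and gained 7 of 72 (9.72%) and 10 of 91 (10.99%). Hox genes lost 25 of 131 (19.1%) and gained 21 of 127 (16.5%), and 19 of 39 were even. The 2-cell-like list had 3 regions at 48 h and 4 at 96 h, too few to describe.

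Over all genes, the most net lost regions fell at genes outside these lists as well. Mtcl1, a microtubule crosslinking protein gene, went from 32 regions to 13, Dnah8, a dynein heavy chain gene, from 35 to 17, Zfp64 from 33 to 18, Med13l, of the Mediator kinase module, from 42 to 27, Epb41l4a from 38 to 22, and Mta3, a subunit of the NuRD complex, from 21 to 6 with 0 gained. At Zfp64 13 of the 17 lost regions were in 2iL, and at Mta3 6 of 15. The most net gained regions fell at Trabd2b, a WNT-cleaving metalloprotease gene, from 11 to 26, Cdk14, a cyclin-dependent kinase gene, from 1 to 11, and Plekhm3, from 5 to 15, each with 0 lost. Frmd4b went from 9 to 18 and Kcnd3, a potassium channel gene, from 7 to 15. The gained regions of Trabd2b had a median fold of 7.40 in the 96 h list, and 0 of its 15 were in 2iL. At Frmd4b 6 of 10 gained regions had been listed in 2iL, so most of its gains were returns.

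**Figure D5:**
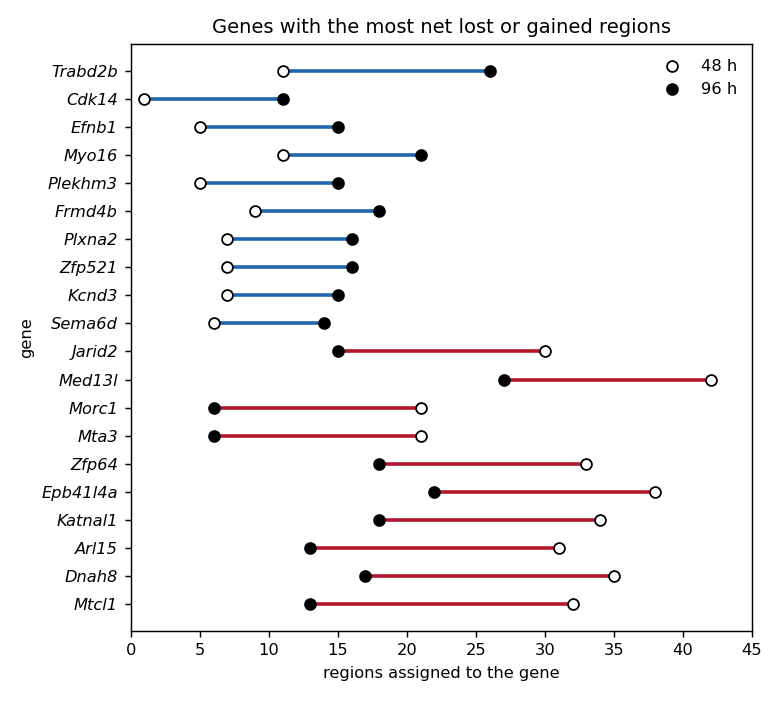
Number of regions assigned at 48 h (open circles) and 96 h (filled circles) for the 10 genes with the most net gained regions (blue lines, top) and the 10 with the most net lost (red lines, bottom). Trabd2b rose from 11 to 26 and Mtcl1 fell from 32 to 13.

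Most microRNA genes with a region nearby had shared ones. Of 1005 RefSeq hairpins, 329 had a region within 1 kb; 243 had shared regions alone, 44 lost regions alone and 18 gained regions alone. Their regions were 255 shared, 60 lost and 26 gained, where 58.3% of all regions were shared, 26.0% lost and 15.7% gained. The miR-302 cluster, which is specific to pluripotent cells, shared a region with a fold of 12.5 in the 48 h list and 7.17 in the 96 h list. The region near Mir290a, the other such cluster, had 5.005 and 8.54, and the region on Mir9-2, a neural miRNA gene, 10.9 and 8.55. In 23 hairpins with lost regions alone and 7 with gained ones the region overlapped the hairpin. Among these, chosen after their values were seen, were Mir26a-2 and Mir365-1, lost with folds of 6.14 and 8.34 in the 48 h list, and Mir100, gained with 5.47 in the 96 h list. None of these 3 regions was listed in 2iL. The main mature forms follow from RefSeq, with the seed, bases 2 to 8, in capitals, and no seed is shared among them.
miR-26a-5p: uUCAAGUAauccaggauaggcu
miR-365-3p: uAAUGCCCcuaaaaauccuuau
miR-100-5p: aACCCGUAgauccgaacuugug
miR-100 belongs to a family known from neural differentiation, and miR-26a is widely expressed. The mature miR-26a-5p and miR-365-3p are also made from other hairpins, so a lost region at 1 hairpin says nothing of their level.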

How the data were processed

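ATAC-seq peak lists of 3 groups (2iL, 48 h and 96 h, 2 samples each) were used. Per the labels' protocols, nuclei came from 100000 live cells per sample, libraries were amplified with 10 PCR cycles and size-selected on a gel at 200 to 700 bp. Build mm10 and the tools BWA, SAMtools, Picard and bcl2fastq 2.20.0.422 appear, without roles, in the submitters' processing notes. Not given in the sources used here are the peak caller and its limits, a read shift for Tn5 insertion, and duplicate removal, each of which could alter which weak peaks appear. Whether A and B were separate cultures is not labelled. The labels assign 1 deposited list to both samples of a group.

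The deposited score is a whole number per interval, at least 540 in each list. The deposited fold at a summit is a linear ratio, and its deposited p is given as −log10. The q values were not used. Each interval was represented by the summit with the largest −log10 p, and each region by its strongest interval. Fold, p and score served only to describe, rank or filter within their own list. Depth was read from the values: fold and p of a summit were solved for a whole number of tags (within 0.02, for −log10 p under 290) and a background.

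Regions were built at an overlap of at least 1 bp. Shares have exact (Clopper-Pearson) 95% intervals, which treat regions as independent. Gene positions came from RefSeq tables of GRCm38.p6: 21887 protein-coding genes, and starts for 17492 of them. Of 572 entries in 27 gene lists, 571 matched. The members and the lists were chosen with earlier results of these data known, and the meiosis, piRNA pathway and muscle cytoskeleton lists after the changed starts had been seen. Genes named were, per list, those with the most net lost and net gained regions (at least 3 net), and over all genes the 10 of each kind. The 10 lost and 10 gained regions with the highest fold, the 8 of each at gene ends, the 5 longest runs of each (ties by the shorter span) and 20 standard genes completed the rule. Other members of the lists are named as examples, chosen after their values were seen. Some genes that this rule or the lists name are not reported here. Counting, merging and the depth solution were tested on simulated data. Alternatives were a stricter overlap, matched summits, a merging gap, equal list lengths, stronger regions, a −log10 p limit, autosomes, and other gene assignments. Python 3.11.15, numpy 2.4.6, pandas 2.3.3, scipy 1.17.1 and matplotlib 3.10.9 were used.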

Additional observations from a re-analysis of the deposited data

How the results depend on the processing

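No paired analysis was possible because each group's samples A and B share 1 deposited list, and for the same reason leaving out a sample was not run. Requiring 50% of the shorter interval, summits within 250 bp, a −log10 p of at least 10, or autosomes alone moved none of the 4 main shares beyond its interval. Cutting the 48 h list to the length of the 96 h list gave 25.1% lost and 24.9% gained, and 7.35% and 6.59% at gene ends. In the stronger 50% of each list by −log10 p, 8.57% were lost and 4.80% gained, and at gene ends 1.60% and 0.529%. In the strongest 25% by fold these were 6.18% and 3.93%, and 0.784% and 0.171%. Merging intervals up to 100 bp apart gave 20.9% gained, and 4.44% at gene ends. Within 500 bp of a gene end 7.04% were lost and 3.50% gained. The cause of these shifts was not tested, apart from fewer regions entering. Of the 54 list shares, 54 stayed within their interval with regions assigned by gene body, 43 with every gene end within 50 kb and 39 without regions over 20 kb away. In the stronger 50% naive genes still lost 19.8%, against 8.57% of all regions. No gained share of the 2-cell-like list could be had there. The background that moves with depth was 1.09 times as high at 48 h as at 96 h, and its part in these shares was not tested.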
